A study of Mus musculus with 29 samples.

Results

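The genes described here are targets of the transcription factor p53 and genes of the cell death machinery it controls: Pmaip1, Bbc3, Bax, Fas, Apaf1, Mdm2, Ccng1, Ddit4, Xpc and Perp. A gene was measured through array probe sets annotated with its symbol and no other, and the brightest of them in a tissue gave its level. Of these 10 genes, 9 had such a probe set, 13 probe sets in all, among 12394 genes of the array, and Bax is not analysed here. The levels were followed in bone marrow and spleen of MLL-ENL-ERtm mice and of wild-type mice on 29 arrays. MLL-ENL is a leukaemia fusion protein, here joined to ERtm, a modified oestrogen receptor domain that holds it inactive until tamoxifen binds. The chow of all mice, wild type included, contained tamoxifen at 300 mg/kg.

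Marrow came from a proliferation group with 4 arrays (7 months on tamoxifen), a transition group with 4 (7 to 8 months), a senescence group with 3 (8 months) and a wild-type group with 4 (7 or 8 months). Spleen came from an early group with 3 arrays (7 months), a progression group with 3 (9 or 10 months), a terminal group with 3 (19, 21 and 23 months) and a wild-type group with 5 (8 to 24 months). The labels call the arrays of a group biological replicates, and each is taken here as a mouse of its own. Per the labels, DNA damage response signalling was low in proliferation marrow and high in transition marrow. It was active in early and progression spleen, and low or absent in terminal spleen, which is also described as free of senescence. The samples are whole primary cells of each tissue, so the cells that carry an active fusion were not separated from the others. The promoter that drives the fusion and the ages of the mice at the start are not given in the sources used here.

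In unstressed cells p53 is kept low by Mdm2, the ubiquitin ligase that marks it for destruction, and Mdm2 is itself switched on by p53, which closes a feedback loop. DNA damage kinases release p53 from Mdm2, and p53 then activates genes that halt the cell cycle, repair DNA or start cell death. In blood-forming tissue this response is known for removing damaged progenitors and lymphocytes. Among the genes followed here, Pmaip1 (Noxa) and Bbc3 (Puma) encode BH3-only proteins that block the survival members of the BCL2 family. Fas encodes a death receptor, and Apaf1 the scaffold of the apoptosome that activates caspase-9. Mdm2 and Ccng1 (cyclin G1) act in the feedback on p53. Ddit4 (Redd1) restrains the growth kinase complex mTORC1 and also responds to glucocorticoids and low oxygen, Xpc recognises damaged DNA in nucleotide excision repair, and Perp encodes a membrane protein of cell junctions linked to p53-dependent death.

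The promoters of some of these genes carry a p53 half-site, a 10-base motif searched by its consensus, and others carry ACGTG, a core of sites for hypoxia and E-box factors, searched on both strands. The windows below are the 250 bases before the annotated start in RefSeq (GRCm38.p6), with matches to either motif in capitals. They are shown as examples of each motif among measured genes: Mdm2 and Ccng1 hold a half-site, and Apaf1 and Ddit4 hold ACGTG and no half-site. Among these printed examples each motif stood before 1 gene higher than wild type at some spleen stage (Mdm2, Apaf1) and 1 lower (Ccng1, Ddit4). The examples were picked, so this balance does not describe all measured genes with a motif.
Mdm2: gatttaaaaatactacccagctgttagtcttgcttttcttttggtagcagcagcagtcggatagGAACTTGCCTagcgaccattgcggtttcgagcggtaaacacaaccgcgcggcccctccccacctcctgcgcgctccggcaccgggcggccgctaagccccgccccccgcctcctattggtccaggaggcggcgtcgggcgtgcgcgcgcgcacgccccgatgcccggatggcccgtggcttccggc
Ccng1: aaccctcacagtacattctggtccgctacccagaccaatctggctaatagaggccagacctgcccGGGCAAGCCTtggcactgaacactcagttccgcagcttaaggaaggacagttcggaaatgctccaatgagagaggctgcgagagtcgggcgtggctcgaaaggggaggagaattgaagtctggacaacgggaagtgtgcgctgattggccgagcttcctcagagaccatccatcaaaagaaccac
Apaf1: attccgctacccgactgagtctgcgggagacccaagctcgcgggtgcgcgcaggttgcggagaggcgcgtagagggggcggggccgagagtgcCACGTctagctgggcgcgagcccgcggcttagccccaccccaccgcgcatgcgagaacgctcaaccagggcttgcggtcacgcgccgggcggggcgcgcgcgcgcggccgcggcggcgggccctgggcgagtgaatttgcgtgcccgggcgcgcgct
Ddit4: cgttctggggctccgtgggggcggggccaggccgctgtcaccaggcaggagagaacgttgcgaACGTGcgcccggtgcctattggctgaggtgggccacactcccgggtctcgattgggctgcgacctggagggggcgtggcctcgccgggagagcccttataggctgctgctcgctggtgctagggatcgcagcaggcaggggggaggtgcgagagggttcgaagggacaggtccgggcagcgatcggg
The Mdm2 window is chr10:117710759-117711008 on the minus strand, with the half-site at -186 from the start, and the Ccng1 window is chr11:40755287-40755536 on the minus strand, with the half-site at -185. The Apaf1 window is chr10:91082744-91082993 and the Ddit4 window chr10:59951771-59952020, both on the minus strand, with ACGTG at -157 (reverse strand) and -187. A half-site occurred in 7.13% and ACGTG in 16.6% of 32851 such mouse windows. A match describes the letters only. The Fas window held ACGTG and no half-site, and Fas was lower than wild type in early and progression spleen. Of the 3 Bbc3 windows none held a half-site and 1 held ACGTG, and Bbc3 passed in no spleen comparison. The window of Bax, which is not measured here, held both. No window of Pmaip1, Xpc or Perp was searched, so nothing is said here of motifs before these genes.

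The arrays were alike in scale within a tissue, with medians of 8.11 to 8.29 log2 units in marrow and 6.73 to 6.90 in spleen, and correlations between arrays of at least 0.962 and 0.938. The tissues differ in scale, so levels are read within a tissue. Markers of cells of each labelled tissue lay above the array medians. The immature granulocyte list (5 genes measured of 6) averaged 13.36 to 14.31 in marrow, and the B cell list (9 of 10) averaged 9.60 to 9.92 in wild-type spleen. These lists do not separate the tissues. The B cell list was at 9.22 to 10.31 in wild-type marrow, and the immature granulocyte list at 11.96 to 13.40 in fusion spleen. Several arrays stood apart. The immediate early list (10 of 10) was at 12.08 in transition marrow 1 and at 9.36 to 10.08 in wild-type marrow, and the adipocyte and muscle list (8 of 10) at 10.13 in proliferation marrow 1 and at most 7.04 in the other marrow arrays. The erythroid list (9 of 10) was at 9.86 in transition marrow 4 and at 11.48 to 13.41 in the other marrow arrays. The pancreas acinar list (7 of 10) was at 12.18 in wild-type spleen 3, 7.92 in early spleen 1 and 7.27 in wild-type spleen 5, and at most 5.25 in the other spleens. Levels of Xist, expressed from an inactive X chromosome, were high in all 4 proliferation and all 4 transition marrows, in 1 senescence marrow of 3 and in 2 wild-type marrows of 4. In spleen they were high in 1 early array of 3, in no progression array, in all 3 terminal arrays and in 2 wild-type arrays of 5.

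In marrow, Pmaip1 was the member that moved furthest. Its log2 levels were 10.04, 10.83, 9.69 and 10.08 in proliferation marrow, 10.62, 10.74, 10.35 and 10.44 in transition marrow and 8.63, 9.14 and 10.29 in senescence marrow, against 8.87, 8.34, 9.10 and 9.19 in wild-type marrow. All proliferation and transition marrows lay above all wild-type marrows, while 2 of the 3 senescence marrows lay inside the wild-type range and 1 above it. Pmaip1 was 3.16-fold higher in transition marrow than in wild type (log2 difference 1.66 ± 0.31 SE, adjusted p = 0.031 by limma over all genes). In proliferation marrow the difference was 1.28 ± 0.31 (adjusted p = 0.13) and in senescence marrow 0.48 ± 0.34 (adjusted p = 0.89). The range of its 4 group means, 1.66, was wider than that of 99.4% of the genes in marrow. The transition call lay near the threshold. Without transition marrow 2, 3 or 4, or any 1 of the 4 wild-type marrows, the difference was 1.48 to 1.77 and the adjusted p 0.0563 to 0.103, and without transition marrow 1 the adjusted p was 0.0223. With the Gapdh 3'/5' difference or the Xist level as a covariate the difference was 1.57 and 1.72 (adjusted p = 0.17 and 0.084).

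The senescence group gave Pmaip1 a wide spread. Its difference from transition marrow was -1.18 ± 0.34, with no overlap of the arrays, as was the case for 1.78% of all genes (unadjusted p = 0.0034 by limma, adjusted p = 0.99999), and that from proliferation marrow -0.81 ± 0.34. Over all genes no call was made between marrow stages (0.0% in each of transition against proliferation, senescence against transition and senescence against proliferation), where 266, 380 and 125 genes had an unadjusted p under 0.05. Array weights, the setting that downweights outlying arrays, made 3 calls over all genes in transition against proliferation and 0 in the other pair.

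**Figure D1:**
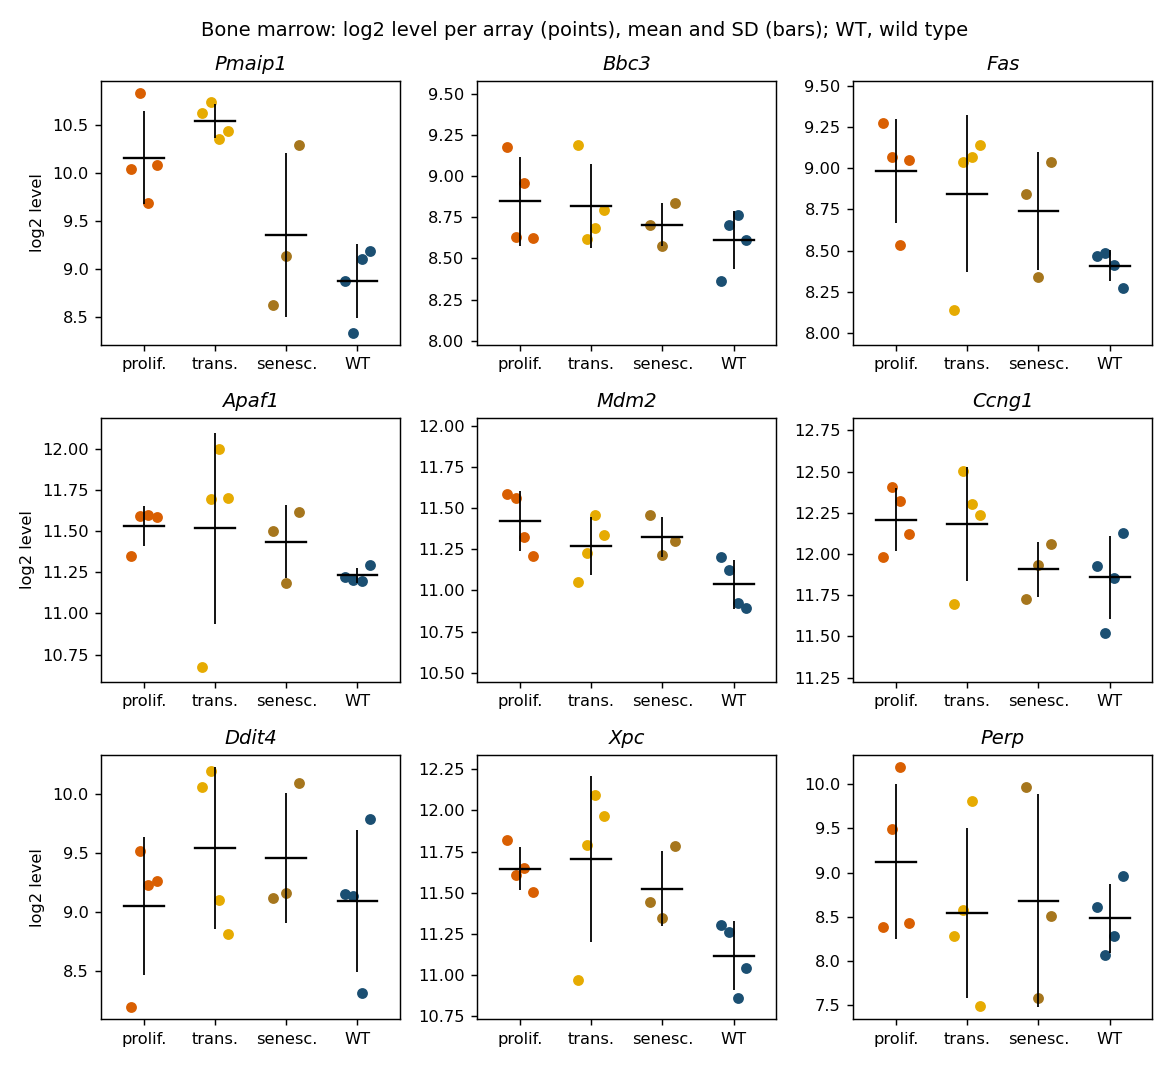
Log2 levels of the 9 measured genes in marrow, 1 point per array, with the group mean (horizontal bar) and SD (vertical bar), in proliferation, transition, senescence and wild-type mice. Pmaip1 sits at 9.69 or above in all proliferation and transition arrays and at 9.19 or below in wild type, and transition 1 is the lowest array of its group for Fas, Apaf1, Mdm2, Ccng1 and Xpc.

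The other members did not pass the threshold in marrow, and most of their differences were positive. Against wild type, 0 of 9 members passed the threshold in proliferation marrow (0.282% of all genes did), 1 of 9, Pmaip1, in transition marrow (0.42%) and 0 of 9 in senescence marrow (0.0484%). At an unadjusted p under 0.05 these counts were 4, 2 and 0 members, beside 1227, 1296 and 788 of all 12394 genes. The median difference of the members was 0.38, 0.33 and 0.29, beside 0.01, 0.04 and 0.00 for all genes, and 8, 9 and 9 of the 9 differences were positive. In proliferation marrow every array lay above every wild-type array for 5 members, Pmaip1, Fas, Apaf1, Mdm2 and Xpc, a pattern found in 7.46% of all genes. The range of the group means was wider than that of 90.8% of the genes for Perp, 88.7% for Xpc, 88.2% for Fas and 83.6% for Ddit4, and than that of 43.9% to 72.7% for Bbc3, Apaf1, Ccng1 and Mdm2. Every array lay above every wild-type array for 1 member, Pmaip1, in transition marrow (1.9% of genes) and for Mdm2 and Xpc in senescence marrow (3.97%).

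Xpc, the damage sensor, was at 11.82, 11.61, 11.65 and 11.51 in proliferation marrow, 10.97, 11.79, 12.09 and 11.96 in transition marrow and 11.44, 11.35 and 11.78 in senescence marrow, against 11.31, 11.26, 10.86 and 11.05 in wild-type marrow. Its differences from wild type were 0.53 ± 0.21, 0.59 ± 0.21 and 0.41 ± 0.22 (adjusted p = 0.38, 0.33 and 0.84). Only transition marrow 1 among the fusion marrows lay inside the wild-type range. Mdm2 was at 11.58, 11.56, 11.33 and 11.21 in proliferation marrow, 11.05, 11.23, 11.46 and 11.34 in transition marrow and 11.46, 11.21 and 11.30 in senescence marrow, against 11.20, 11.12, 10.92 and 10.90 in wild-type marrow. Its differences were 0.38 ± 0.13, 0.23 ± 0.13 and 0.29 ± 0.14, none past the threshold (lowest adjusted p = 0.29). As with Xpc, only transition marrow 1 among the fusion marrows fell within the range of wild type.

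Fas, the death receptor, was at 9.27, 9.07, 8.53 and 9.05 in proliferation marrow, 8.14, 9.04, 9.07 and 9.14 in transition marrow and 8.84, 8.34 and 9.04 in senescence marrow, against 8.47, 8.48, 8.42 and 8.27 in wild-type marrow. Its differences from wild type were 0.57 ± 0.22, 0.44 ± 0.22 and 0.33 ± 0.24 (adjusted p = 0.375 or more). Transition marrow 1 was the lowest marrow array of all for Fas. It was also the lowest of its group for 5 of the 9 members. Apaf1 was at 11.35, 11.59, 11.60 and 11.58 in proliferation marrow, 10.67, 11.69, 12.00 and 11.70 in transition marrow and 11.50, 11.19 and 11.62 in senescence marrow, against 11.22, 11.20, 11.20 and 11.29 in wild-type marrow, and again transition marrow 1 was the lowest of all. Without that array, 4 members passed in transition against wild type: Pmaip1, Xpc (0.83, adjusted p = 0.011), Apaf1 (0.57, adjusted p = 0.025) and Fas (0.67, adjusted p = 0.047). With all arrays only Pmaip1 passed. Transition marrow 1 was the lowest of its group for Xpc, Apaf1 and Fas, so omitting it raises their differences by construction. The share of all genes passing in that fit is not given here. The same array had the highest level of the immediate early list, and the part of that in these differences was not tested.

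Among the remaining members in marrow, Perp varied between mice more than between groups. It ranged from 8.38 to 10.19 in proliferation marrow, 7.49 to 9.81 in transition marrow and 7.58 to 9.96 in senescence marrow, against 8.07 to 8.96 in wild-type marrow, and its SD within groups, 0.88, was larger than that of 98.1% of the genes. Ddit4 spread almost as widely (SD within groups 0.61), from 8.19 to 9.51, 8.81 to 10.19 and 9.11 to 10.10 in the 3 fusion states and from 8.31 to 9.78 in wild-type marrow. Bbc3 and Ccng1 overlapped wild type in all 3 states, with differences of 0.09 to 0.24 for Bbc3 and 0.05 to 0.35 for Ccng1 and adjusted p of 0.545 or more. In marrow the B cell list averaged 8.07 to 8.51, 7.84 to 8.85 and 8.25 to 8.91 in the 3 fusion states and 9.22 to 10.31 in wild type, with 4, 4 and 0 of its 9 genes past the threshold, all lower, and its part in the marrow differences was not tested. In whole tissue, fewer cells of a type and less RNA per cell cannot be told apart.

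In spleen the same genes separated into members that were higher and members that were lower than in wild type. Xpc and Apaf1 rose at every stage, Mdm2 rose at the terminal stage, Ddit4 and Pmaip1 fell at every stage, and Fas and Ccng1 fell at some. Against wild type, 6 of 9 members passed in early spleen (15.9% of all genes did), 2 higher and 4 lower, where 7.35% of all genes were higher and 8.55% lower. In progression spleen 5 of 9 passed (19.3%), 2 higher (9.29%) and 3 lower (9.96%), and in terminal spleen 5 of 9 (34.5%), 3 higher (18.1%) and 2 lower (16.3%). The median difference of the members was -0.05, -0.33 and -0.13, beside 0.03, 0.04 and 0.04 for all genes. These spleen comparisons share the same 5 wild-type arrays. Where arrays of spleen groups are described as not overlapping, the share of all genes with that pattern is not given here.

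**Figure D2:**
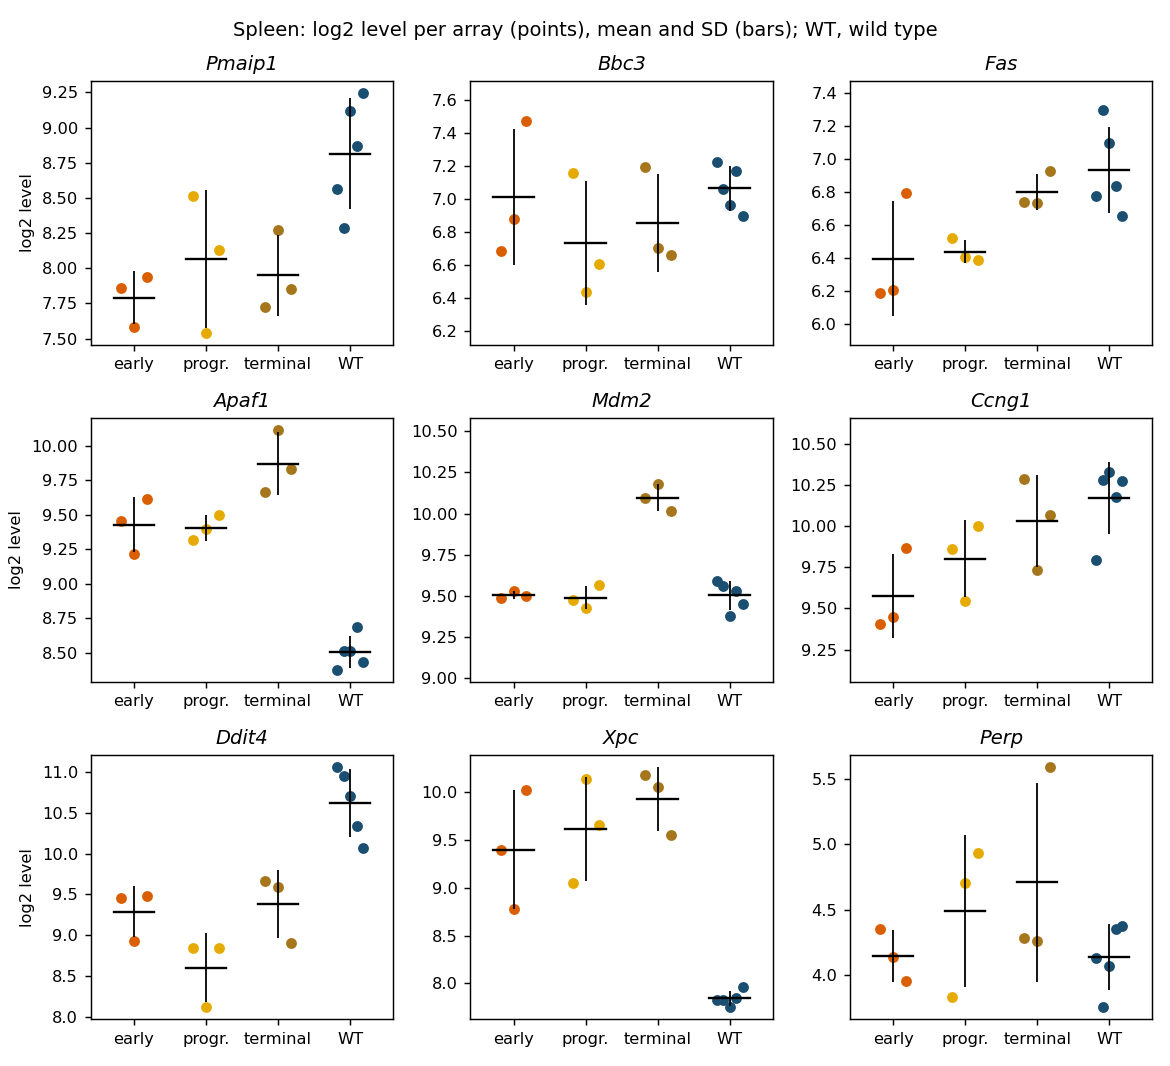
Log2 levels of the 9 measured genes in spleen, 1 point per array, with the group mean (horizontal bar) and SD (vertical bar), in early, progression, terminal and wild-type mice. Xpc and Apaf1 lie above wild type in all 9 fusion spleens, Ddit4 lies below it in all 9, and Mdm2 is high only in the 3 terminal spleens.

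Xpc had the widest range of the members. Its log2 levels were 9.40, 8.78 and 10.02 in early spleen, 9.05, 10.14 and 9.65 in progression spleen and 10.18, 10.06 and 9.55 in terminal spleen, against 7.82, 7.83, 7.75, 7.84 and 7.96 in wild-type spleen. The 9 fusion spleens did not overlap the 5 wild-type spleens, and the 3 stages overlapped each other. Xpc was 2.94-fold higher in early spleen (1.56 ± 0.26, adjusted p = 0.0012), 3.42-fold higher in progression spleen (1.77 ± 0.26, adjusted p = 0.00038) and 4.25-fold higher in terminal spleen (2.09 ± 0.26, adjusted p = 3.5e-05). Among the wild-type spleens, treated for 8 to 24 months, Xpc stayed between 7.75 and 7.96.

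Apaf1, the apoptosome scaffold, was at 9.46, 9.22 and 9.62 in early spleen, 9.32, 9.40 and 9.50 in progression spleen and 9.67, 10.12 and 9.84 in terminal spleen, against 8.38, 8.51, 8.51, 8.69 and 8.43 in wild-type spleen. It was 1.90-fold higher in early spleen (0.93 ± 0.12, adjusted p = 0.00028), 1.87-fold higher in progression spleen (0.90 ± 0.12, adjusted p = 0.00025) and 2.58-fold higher in terminal spleen (1.37 ± 0.12, adjusted p = 2.7e-06). The terminal arrays lay above all early and progression arrays, but 0.44 ± 0.14 over early and 0.47 ± 0.14 over progression missed the threshold (adjusted p = 0.072 and 0.062). Without early spleen 3 the rise over early spleen passed (0.54, adjusted p = 0.026), as did that over progression without progression spleen 3 (0.51, adjusted p = 0.041). A second, dimmer Apaf1 probe set was higher by 0.70 ± 0.21 (adjusted p = 0.04), 0.54 ± 0.21 (adjusted p = 0.093) and 1.05 ± 0.21 (adjusted p = 0.0016) in the early, progression and terminal spleens.

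Ddit4, the mTORC1 inhibitor, showed the largest fall. It was at 9.46, 8.93 and 9.48 in early spleen, 8.84, 8.12 and 8.84 in progression spleen and 9.66, 9.59 and 8.90 in terminal spleen, against 11.06, 10.95, 10.70, 10.34 and 10.07 in wild-type spleen. No fusion spleen reached the wild-type range. Ddit4 fell at all 3 stages, with differences of -1.34 ± 0.26 in early spleen (adjusted p = 0.0031), -2.02 ± 0.26 in progression spleen (adjusted p = 0.00016) and -1.24 ± 0.26 in terminal spleen (adjusted p = 0.002). In progression spleen this was a level 4.06-fold lower than in wild type. The difference of progression from early was -0.69 ± 0.29 and that of terminal from progression 0.78 ± 0.29, and neither passed (adjusted p = 0.67 and 0.12).

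Pmaip1, which was higher than wild type in transition marrow, was lower than wild type in fusion spleen. Its levels were 7.86, 7.58 and 7.94 in early spleen, 8.52, 7.54 and 8.13 in progression spleen and 7.72, 8.27 and 7.85 in terminal spleen, against 8.57, 8.28, 9.12, 8.87 and 9.25 in wild-type spleen. The early and terminal arrays lay below every wild-type array, and progression spleen 1 lay inside the wild-type range. Pmaip1 fell at all 3 stages, with differences of -1.02 ± 0.24 in early spleen (adjusted p = 0.00996), -0.75 ± 0.24 in progression spleen (adjusted p = 0.042) and -0.87 ± 0.24 in terminal spleen (adjusted p = 0.012). The progression call was lost without progression spleen 2 (-0.49, adjusted p = 0.25), progression spleen 3 or wild-type spleen 3, 4 or 5 (adjusted p = 0.0539 to 0.0927), and without wild-type spleen 3 and early spleen 1, the arrays with the strongest pancreas signal (-0.68, adjusted p = 0.11). It was also lost on quantile normalization, median centring, array weights, a fit of only the groups compared and the Xist covariate (adjusted p = 0.055, 0.058, 0.058, 0.068 and 0.080). The terminal call was lost without terminal spleen 1 (-0.75, adjusted p = 0.059). The early call was lost without the pair with pancreas signal (-0.98, adjusted p = 0.064).

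Fas and Ccng1 fell less and with less margin. Fas was at 6.19, 6.20 and 6.80 in early spleen, 6.52, 6.41 and 6.39 in progression spleen and 6.74, 6.73 and 6.93 in terminal spleen, against 6.77, 7.30, 7.09, 6.83 and 6.66 in wild-type spleen. The progression arrays lay below all wild-type arrays, and early spleen 3 and the terminal arrays lay among them. Fas fell in early spleen (-0.54 ± 0.16, adjusted p = 0.039) and in progression spleen (-0.49 ± 0.16, adjusted p = 0.0495), and was -0.13 ± 0.16 from wild type in terminal spleen (adjusted p = 0.59). The early call was lost without early spleen 1 or 2 or wild-type spleen 2, 3 or 4 (adjusted p = 0.0574 to 0.177), and without the arrays of pancreas signal (-0.39, adjusted p = 0.29). Centring on the array medians, the Gapdh covariate and a fit of only the groups compared also lost it (adjusted p = 0.055, 0.069 and 0.076). The progression call was lost without any 1 of the 3 progression spleens or wild-type spleen 2, 3 or 4 (adjusted p = 0.0703 to 0.155), without the pair with pancreas signal (-0.45, adjusted p = 0.11), and after rescaling the arrays (-0.43, adjusted p = 0.09 when centred on their medians).

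Ccng1 was at 9.41, 9.45 and 9.87 in early spleen, 9.86, 9.54 and 10.00 in progression spleen and 10.29, 9.73 and 10.07 in terminal spleen, against 9.79, 10.28, 10.33, 10.18 and 10.27 in wild-type spleen. It fell in early spleen (-0.60 ± 0.17, adjusted p = 0.027), with values of -0.37 ± 0.17 in progression spleen (adjusted p = 0.14) and -0.14 ± 0.17 in terminal spleen (adjusted p = 0.57). The early and progression spleens overlapped the wild-type group only through wild-type spleen 1, the mouse treated for 24 months. Of the other Ccng1 probe sets, 1 fell in early spleen (-0.57 ± 0.17, adjusted p = 0.039) and 1 was at -0.23 ± 0.21 (adjusted p = 0.53). The early call was lost without early spleen 1 or 2 or wild-type spleen 2, 3, 4 or 5 (adjusted p = 0.0523 to 0.124), without the arrays of pancreas signal (-0.47, adjusted p = 0.21) and on the mean of all probe sets (-0.46, adjusted p = 0.065).

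Mdm2, the inhibitor of p53, set the terminal stage apart. It was at 9.48, 9.53 and 9.50 in early spleen, 9.48, 9.42 and 9.56 in progression spleen and 10.10, 10.18 and 10.02 in terminal spleen, against 9.59, 9.56, 9.38, 9.53 and 9.45 in wild-type spleen. The terminal arrays lay above all others, and early, progression and wild-type spleens shared 1 narrow band. Mdm2 was 1.51-fold higher in terminal spleen than in wild type (0.59 ± 0.09, adjusted p = 0.00014), 1.52-fold higher than in progression spleen (0.61 ± 0.10, adjusted p = 0.0023) and 1.51-fold higher than in early spleen (0.59 ± 0.10, adjusted p = 0.0021). In early spleen its difference from wild type was 0.00 ± 0.09 and in progression spleen -0.01 ± 0.09. Its SD within groups, 0.07, was among the smallest of all genes, with 0.766% of them lower.

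Mdm2 was the 1 member of 9 past the threshold in terminal against progression spleen (5.86% of all genes) and the 1 of 9 in terminal against early spleen (6.61%), while 0 of 9 passed in progression against early (0.0% of genes, with 910 genes and 1 member, Ddit4, at an unadjusted p under 0.05). A dimmer Mdm2 probe set was higher in terminal spleen than in wild type (0.53 ± 0.18, adjusted p = 0.039). Its differences from progression, 0.66 ± 0.20, and from early, 0.47 ± 0.20, did not pass (adjusted p = 0.068 and 0.18). With only the groups compared in the fit, the 2 calls between stages were at adjusted p = 0.066 and 0.054. The terminal mice had tamoxifen for 19 to 23 months and the early and progression mice for 7 to 10, so stage and duration cannot be told apart there. Xist was high in all 3 terminal spleens, in no progression spleen and in 1 early spleen of 3. Within terminal and progression spleen, Xist status and stage therefore cannot be told apart either. With Xist as a covariate, 200 genes passed in terminal against progression, and 726 did without it. The wild-type mouse treated for 24 months had Mdm2 at 9.59, the highest level of the 5 wild-type spleens and below the terminal spleens. With 1 such mouse, the part of duration was not tested.

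Bbc3 and Perp passed in no spleen comparison. Bbc3, the second BH3-only gene, was at 6.69, 6.88 and 7.48 in early spleen, 7.16, 6.44 and 6.61 in progression spleen and 7.20, 6.71 and 6.66 in terminal spleen, against 7.23, 7.06, 6.97, 7.17 and 6.90 in wild-type spleen, and all groups overlapped. Perp was at 3.83 to 5.59 in fusion spleens and 3.76 to 4.38 in wild-type spleens, near or under the lower quartile of the arrays (4.56 to 4.81), so no fold is given.

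**Figure D3:**
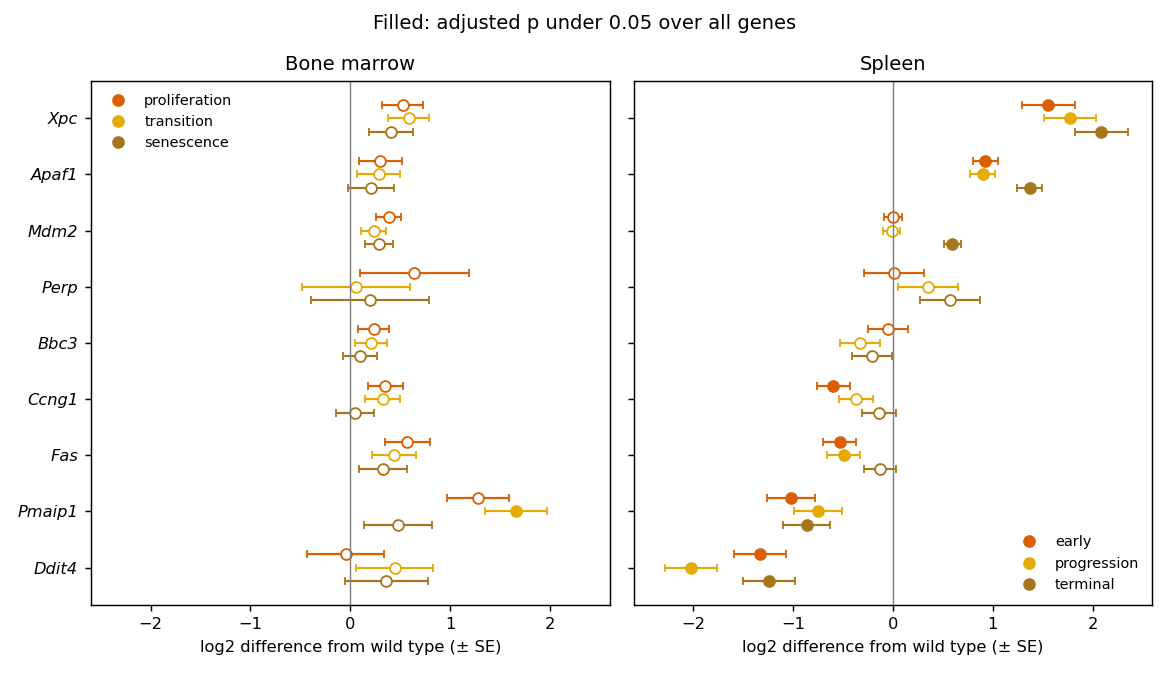
Log2 difference from wild type of the same tissue (x axis, ± SE) for each measured gene, with the stages of marrow on the left and of spleen on the right. Filled points passed an adjusted p of 0.05 over all genes: 1 point in marrow, Pmaip1 in transition, and 16 in spleen.

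Marker genes of several cell types moved in spleen alongside these genes. The immature granulocyte list rose in 5 of 5 genes and the mature neutrophil list in 8 of 8 at each stage, the immature list at 11.96 to 13.31 in early, 12.13 to 13.14 in progression and 12.80 to 13.40 in terminal spleen, against 8.40 to 9.85 in wild-type spleen. The B cell list fell in 7, 8 and 8 of 9 genes, and 1 gene of it was higher in progression spleen. The list was at 7.86 to 8.84 in early, 7.21 to 8.85 in progression and 6.20 to 7.64 in terminal spleen, against 9.60 to 9.92 in wild-type spleen. The T cell list (7 of 8 genes measured) fell in 6, 6 and 7 of 7, at 7.32 to 7.85, 7.09 to 7.80 and 6.95 to 7.32 in the 3 stages, against 8.75 to 9.10 in wild-type spleen. Erythroid genes fell in 9 of 9 at the terminal stage, at 9.30 to 9.97 in terminal spleen and 11.46 to 11.72 in wild-type spleen, the stage at which Mdm2 rose. Of 7 measured monocyte and macrophage genes (8 listed), 4, 1 and 4 were lower and 1 higher at each stage, with the list at 9.07 to 9.90 in early, 9.69 to 10.34 in progression and 9.60 to 10.13 in terminal spleen, against 10.14 to 10.59 in wild-type spleen. Of 9 dividing cell genes (10 listed), 3, 5 and 3 were higher and 0, 0 and 1 lower. At these stages 15.9%, 19.3% and 34.5% of all genes passed. The immediate early list, with 0, 0 and 3 of 10 genes higher and 0, 1 and 0 lower, was at 9.06 to 10.87 in terminal spleen and 8.16 to 9.49 in wild-type spleen. No listed marker gene is a member, and the part of these shifts in the member differences was not tested. Without the pair with pancreas signal, Xpc, Apaf1, Ddit4 and, at the terminal stage, Mdm2 kept their calls.

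Over the 3 stages together, 7 of 9 members passed in spleen (32.5% of all genes, 16.0% higher and 16.4% lower), with Xpc (1.81 ± 0.20), Apaf1 (1.06 ± 0.10) and Mdm2 (0.19 ± 0.07) higher and Ddit4 (-1.53 ± 0.20), Pmaip1 (-0.88 ± 0.18), Fas (-0.39 ± 0.12) and Ccng1 (-0.37 ± 0.13) lower. In marrow 0 of 9 did (0.662%), although Pmaip1 stood 1.14 ± 0.26 above wild type (adjusted p = 0.067). There 4 members, and 1548 of all 12394 genes, had an unadjusted p under 0.05. In marrow without transition marrow 1, the lowest of its group for Xpc and Fas, Xpc (0.59), Pmaip1 (1.13) and Fas (0.53) passed. Without senescence marrow 1, the lowest of its group for Pmaip1, Pmaip1 (1.26) did. The shares of all genes passing in these fits are not given here. In spleen 3 of the pooled calls lay near the threshold, and leaving out any of many arrays lost them while the differences kept their sign. That of Mdm2 (0.16 to 0.23 over all alternatives) was lost without early 1 or 2, progression 1, terminal 1 or 2 or wild type 2, 3, 4 or 5 (adjusted p = 0.0536 to 0.125). That of Ccng1 was lost without early 1 or 2, progression 1 or 2, terminal 2 or 3 or wild type 2, 3, 4 or 5 (adjusted p = 0.0516 to 0.107), and that of Fas without early 1 or 2 or wild type 2 or 3 (adjusted p = 0.0505 to 0.0956).

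The fusion effect differed between the tissues for 6 of 9 members, by a test of the difference itself in 1 fit over all 29 arrays (14.0% of all genes passed). The effect was the higher one in marrow for 4 members (8.54% of all genes) and in spleen for 2 (5.42%). Whether marrow and spleen arrays share mice is not given in the sources used here, and the fit treats all arrays as independent. Pmaip1 was higher than wild type in marrow and lower in spleen, a difference of 2.02 ± 0.33 between the effects (adjusted p = 0.00015). Ddit4 (1.79 ± 0.39, adjusted p = 0.0026), Fas (0.83 ± 0.23, adjusted p = 0.014) and Ccng1 (0.61 ± 0.20, adjusted p = 0.039) also had the higher effect in marrow. Xpc (-1.30 ± 0.27, adjusted p = 0.0018) and Apaf1 (-0.80 ± 0.21, adjusted p = 0.0091) had the higher effect in spleen. Mdm2, Bbc3 and Perp did not pass, with 0.11 ± 0.12, 0.38 ± 0.21 and -0.01 ± 0.53. The Ccng1 difference was lost without marrow proliferation 2, transition 2, senescence 3 or wild type 1, 2 or 3, and without spleen early 1 or 2, progression 2, terminal 2 or wild type 2, 3, 4 or 5 (0.50 to 0.63, adjusted p = 0.0518 to 0.113). The dimmer probe set of Apaf1 was at -0.39 ± 0.27 (adjusted p = 0.41).

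**Figure D4:**
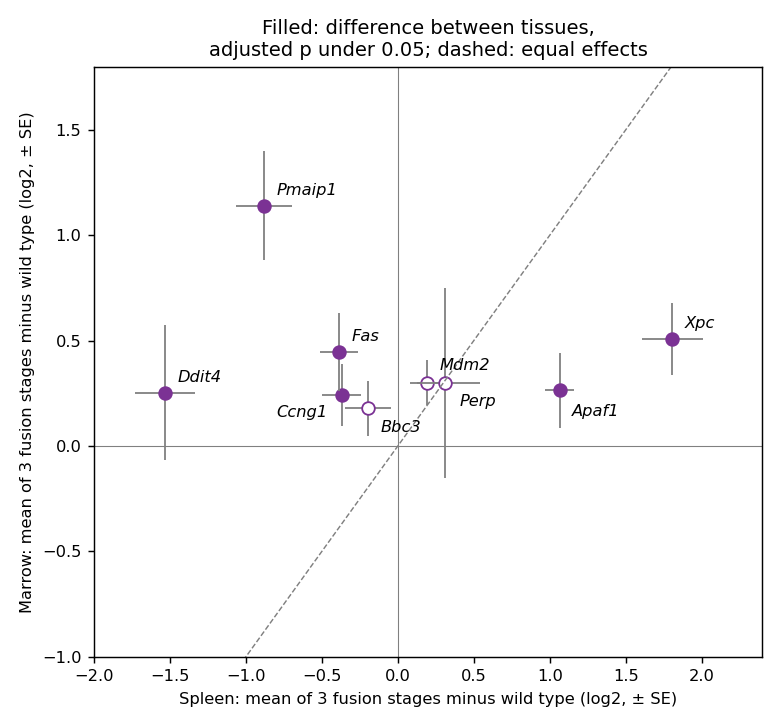
Mean log2 difference of the 3 fusion stages from wild type in spleen (x axis) and in marrow (y axis), each ± SE, for the 9 measured genes. Points left of the dashed line had the higher effect in marrow, among them Pmaip1 at 1.14 in marrow and -0.88 in spleen, and Xpc and Apaf1 lie furthest to the right of it.

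Other genes of the pathway were followed in lists. Of 24 measured p53 regulators and further p53 targets (29 listed), 0 passed by limma in any of the 3 marrow states. In proliferation, transition and senescence 3, 2 and 1 had an unadjusted p under 0.05, beside 1227, 1296 and 788 of all 12394 genes. In spleen 1 was higher and 6 lower at the early stage, 2 and 6 in progression, and 2 and 9 at the terminal stage, with list medians of -0.19, -0.35 and -0.31 (the medians of all genes were 0.03, 0.04 and 0.04). Of all genes 7.35% were higher and 8.55% lower at the early stage, 9.29% and 9.96% in progression, and 18.1% and 16.3% at the terminal stage. Cdkn1a, the cyclin-dependent kinase inhibitor p21, was at 7.60, 7.76 and 8.02 in early spleen, 9.26, 7.96 and 7.78 in progression spleen and 8.66, 8.57 and 8.70 in terminal spleen, against 7.88, 7.15, 7.05, 7.18 and 7.23 in wild-type spleen. It rose by 1.03 ± 0.28 in progression (adjusted p = 0.018) and 1.34 ± 0.28 in terminal spleen (adjusted p = 0.0018), was at 0.50 ± 0.28 in early spleen (adjusted p = 0.26), and at 0.31 to 0.50 in the marrow states (adjusted p = 0.41 or more). The highest wild-type Cdkn1a level was again that of the mouse treated for 24 months.

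Most of the other p53 targets that passed in spleen were lower. Sesn1, a stress-induced inhibitor of mTORC1, was at 10.73, 10.66 and 10.17 in early spleen, 10.08, 9.97 and 10.65 in progression spleen and 9.47, 8.95 and 9.23 in terminal spleen, against 10.90 to 11.22 in wild-type spleen. Sesn1 fell at all 3 stages, with differences of -0.59 ± 0.18 (adjusted p = 0.036), -0.87 ± 0.18 (adjusted p = 0.0034) and -1.89 ± 0.18 (adjusted p = 3.3e-06). Ddb2, a second damage sensor of excision repair, fell at the 3 stages (-0.84 ± 0.20, -0.88 ± 0.20 and -1.17 ± 0.20), in the direction opposite to Xpc. Rrm2b, a p53-induced subunit of ribonucleotide reductase, fell in early (-0.75 ± 0.16) and progression spleen (-0.77 ± 0.16). Zmat3 in early spleen (-0.83 ± 0.22), Trp53inp1 in progression spleen (-0.94 ± 0.17), and Ppm1d (-1.03 ± 0.19) and Gadd45a (-1.21 ± 0.23) in terminal spleen fell too. Gtse1, a cell cycle gene that restrains p53, rose in early spleen (0.65 ± 0.15). Mdm4, the partner of Mdm2 in holding p53 down, was at -0.33 ± 0.14 in terminal spleen (adjusted p = 0.094).

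The BCL2 family moved in both directions. Of 13 measured members (14 listed), 2 rose and 2 fell in early, 2 and 3 in progression and 5 and 4 in terminal spleen, with medians of 0.05, 0.03 and -0.04. The shares of all genes passing, in either direction, were 15.9%, 19.3% and 34.5%. Bcl2, a survival protein, was at 6.59 to 7.19 in early, 6.91 to 7.18 in progression and 6.32 to 6.69 in terminal spleen, against 7.60 to 7.91 in wild-type spleen, and fell at each stage (-0.80 ± 0.14, -0.70 ± 0.14 and -1.21 ± 0.14). Bcl2l1 (Bcl-xL), a further survival protein and one that erythroid precursors depend on, was at 10.56 to 10.98 in early, 10.36 to 10.61 in progression and 9.04 to 9.25 in terminal spleen, against 10.32 to 10.86 in wild-type spleen, and fell in terminal spleen (-1.41 ± 0.14, adjusted p = 5.4e-06). Bcl2l11 (Bim), a BH3-only death inducer of lymphocytes, fell in progression (-1.15 ± 0.23) and terminal spleen (-1.48 ± 0.23). Mcl1, a survival protein, fell in early spleen (-0.64 ± 0.18). Bad, a BH3-only gene, rose by 0.72 ± 0.15, 0.59 ± 0.15 and 0.90 ± 0.15, Bak1, a pore-forming death effector, by 0.81 ± 0.21 in early spleen, and Bcl2l2, a survival gene, by 0.34 ± 0.09 in progression spleen.

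Of 15 measured death receptor and caspase genes (18 listed), 2 rose and 5 fell in early, 1 and 3 in progression and 2 and 5 in terminal spleen, with medians of -0.19, -0.15 and -0.05. The shares of all genes passing, in either direction, were 15.9%, 19.3% and 34.5%. Fasl, the ligand of Fas made by activated T and NK cells, was at 4.59 to 5.50 in early, 4.84 to 6.01 in progression and 5.21 to 5.57 in terminal spleen, close to the lower quartile of the arrays, against 6.52 to 7.18 in wild-type spleen. Its differences were -1.88 ± 0.27 in early and -1.63 ± 0.27 in progression spleen. Tnfrsf1a, the main TNF receptor, was at 10.10 to 10.29 in early, 10.19 to 10.28 in progression and 10.71 to 11.09 in terminal spleen, against 9.00 to 9.68 in wild-type spleen, and rose by 0.98 ± 0.15, 1.04 ± 0.15 and 1.73 ± 0.15. Birc3, an inhibitor of apoptosis protein, fell at the 3 stages (-1.26 ± 0.14, -1.36 ± 0.14 and -1.07 ± 0.14), as did its relative Birc2 in progression (-0.63 ± 0.15) and terminal spleen (-0.86 ± 0.15). Fadd, the adaptor of Fas, rose by 0.72 ± 0.12 in terminal spleen, and Cflar, which blocks caspase-8, fell in early spleen (-0.43 ± 0.11).

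**Figure D5:**
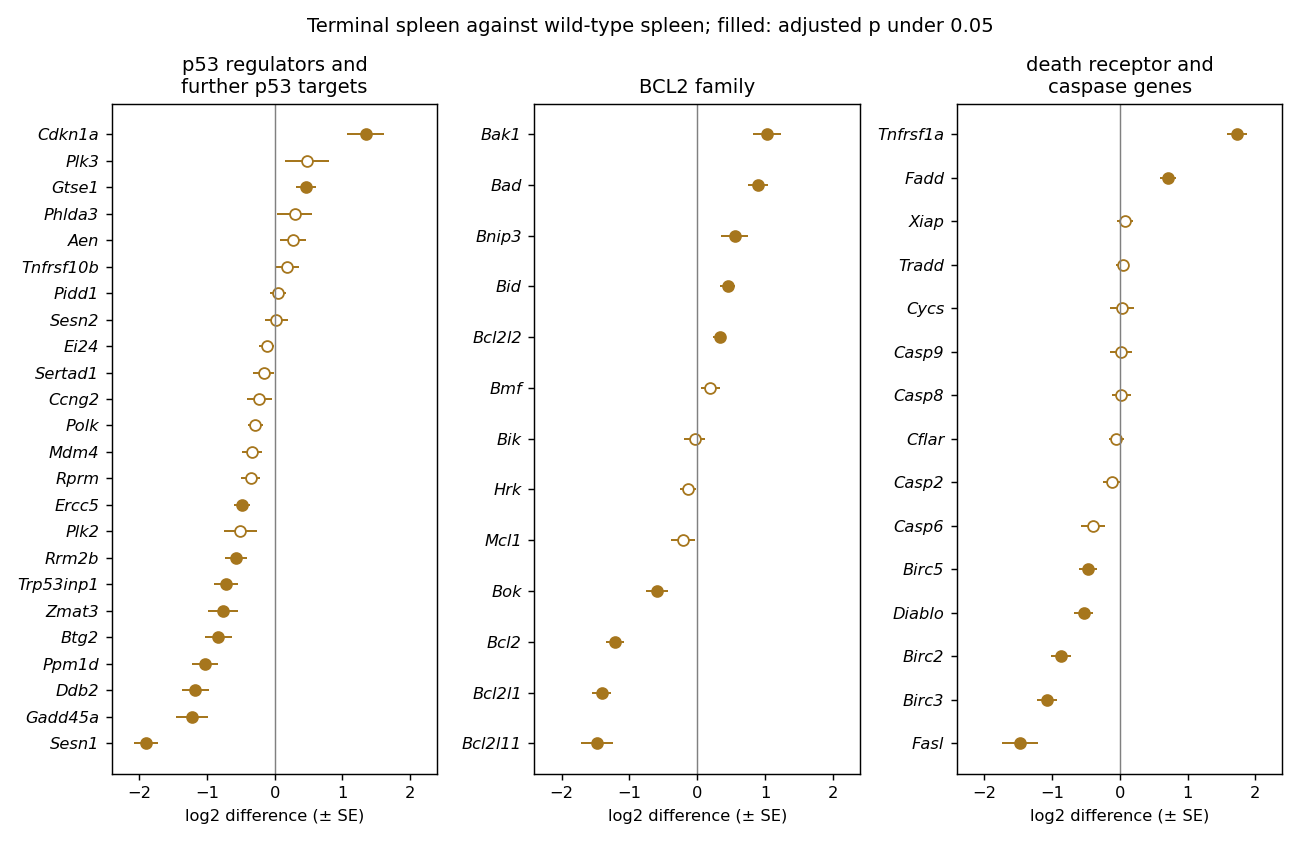
Log2 difference between terminal and wild-type spleen (x axis, ± SE) for the measured genes of 3 lists: p53 regulators and further targets, the BCL2 family, and death receptor and caspase genes. Filled points passed an adjusted p of 0.05 over all genes, 2 higher and 9 lower among p53 genes, 5 and 4 in the BCL2 family, and 2 and 5 among death receptor and caspase genes. Of all genes 18.1% were higher and 16.3% lower.

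Regulators of mTORC1 beside Ddit4 and repair genes beside Xpc were followed as well. Of 6 measured mTORC1 regulators (10 listed), Deptor, which inhibits the complex, rose by 0.76 ± 0.22, 0.78 ± 0.22 and 0.82 ± 0.22 at the early, progression and terminal stages, and Tsc1, which restrains it upstream, fell in early (-0.41 ± 0.12) and terminal spleen (-0.79 ± 0.12). The list medians were -0.03, 0.09 and 0.00, and 15.9%, 19.3% and 34.5% of all genes passed at these stages. Of 10 measured genes of nucleotide excision repair beside Xpc (12 listed), 0 passed by limma in early and progression spleen (medians 0.01 and -0.07). At an unadjusted p under 0.05 there were 3 and 1, beside 3557 and 4151 of all 12394 genes. In terminal spleen (median 0.21) 3 of the 10 rose, Gtf2h1 (0.38 ± 0.09), Ercc3 (0.36 ± 0.10) and Rad23b (0.34 ± 0.13), the last a partner of the Xpc protein. That count is near the share of all genes that passed there, 34.5%, with 18.1% higher. The BCL2, death receptor, mTORC1 and repair lists had 0 members past the threshold in all 3 marrow states by limma. At an unadjusted p under 0.05 the BCL2 family had 2, 4 and 1 in proliferation, transition and senescence marrow, the death receptor and caspase genes 3, 3 and 2, the mTORC1 regulators 0, 1 and 1, and the repair genes 0 in each. Of all 12394 genes, 1227, 1296 and 788 were under it in these states.

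For the member with the widest range of group means in each tissue, the genes with the most similar profiles were found as the smallest mean absolute difference between centred log2 levels. For Xpc over the 14 spleen arrays these were Gsr (0.137), Lta4h (0.159), Csf2ra (0.161), Msra (0.165) and Galns (0.165), where the median over all genes was 0.866. For Pmaip1 over the 15 marrow arrays they were Padi2 (0.292), Klra2 (0.34), Hcar2 (0.367), Lat2 (0.372) and Rhob (0.377), against a median of 0.706. The likeness is a description of these arrays, which share cell composition and scale.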

How the data were processed

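Total RNA of whole marrow and spleen cells was hybridised to an Affymetrix mouse array of 22690 probe sets. The deposited values are log2 probe set summaries, made by the authors through RMA with affy and limma, per the submitters' processing notes. Versions and settings are not given in the sources used here. RMA shrinks differences of dim probe sets, so small log2 differences at low levels are understated. Arrays hold no read depth, and the number of arrays limits the precision.

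Of the probe sets, 20393 carried 1 gene symbol, 691 several and 1606 none in the platform annotation. The brightest probe set of a symbol in a tissue stood for the gene. Groups came from the labels, whose replicates are called biological. Limma 3.58.1 (R 4.3.3, lmFit and eBayes) fitted the 4 groups of each tissue, and all 29 arrays for the contrast between tissues. P-values were adjusted by Benjamini-Hochberg over 12394 genes, threshold 0.05. Errors are standard errors of the fit. The fits were tested on simulated data. A fold is given only where the lower group lay more than 1 unit above the lower quartile of its arrays. The alternatives were other scalings, filters, probe set rules, covariates, array weights, a replicate block, and fits that omit 1 array.

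The member genes, the pathway and marker lists and the tests were chosen with earlier results of these data known. All 10 members are named throughout, and of each pathway list up to 4 genes with the smallest p past the threshold of a comparison, with Cdkn1a and Mdm4 in any comparison. Of genes chosen by similarity, the 5 nearest are named. Promoter windows come from RefSeq (GRCm38.p6). Tables and figures were made with Python 3.11.15, pandas 2.3.3 and matplotlib 3.10.9.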

Additional observations from a re-analysis of the deposited data

Results flagged for a closer look

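In 3 of the 36 sets of 4 or 5 arrays examined, 1 array lay far from the rest of its group, a spacing that chance gives in about 1 set in 20. Apaf1 was at 11.35 in proliferation marrow 1 and at 11.58 to 11.60 in the other 3 proliferation marrows; this array also had the highest adipocyte and muscle list, whose part was not tested. Fas was at 8.14 in transition marrow 1 and at 9.04 to 9.14 in the other 3 transition marrows. Ccng1 was at 9.79 in wild-type spleen 1, from the mouse treated longest, and at 10.18 to 10.33 in the other 4 wild-type spleens.

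For 6 members the fusion effect in marrow minus that in spleen differed from 0 by the test of the difference: Pmaip1 (2.02), Ddit4 (1.79), Fas (0.83), Ccng1 (0.61), Apaf1 (-0.80) and Xpc (-1.30). The tissues were sampled at different times of treatment and appear to have been normalized apart.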

How the results depend on the processing

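Of 2913 alternative values of single members, 2759 kept their side of the threshold, 123 lost a call, 31 gained one, and none that was called changed sign. Values that passed in neither fit are counted as kept even where their sign changed. Ddit4 in proliferation marrow, for example, was at -0.05 in the main fit and up to 0.35 in an alternative. Of 32 calls in the 15 comparisons, 17 held under every alternative other than a single dimmer probe set, among them all calls of Xpc and Ddit4 and the calls of Apaf1 within spleen. Array weights raised the members called to 4 in proliferation, 5 in transition and 5 over the pooled fusion marrow against wild type, and to 5 in terminal against early spleen. Calls over all 12394 genes rose with the weights as well. They went from 35 to 1221, 52 to 1979 and 82 to 1876 in these marrow comparisons, and from 819 to 3471 in terminal against early spleen. Transition against wild type gave 0 with the Gapdh 3'/5' difference or Xist as covariate, where Pmaip1 differed by 1.57 and 1.72. Progression against wild-type spleen gave 3 when arrays were quantile normalized again or centred. Without the arrays of pancreas signal, early and progression spleen gave 3 each and the pooled spleen 4. Terminal against progression and against early spleen gave 2 each over genes above the median level and 0 with only the groups compared. Leaving out 1 array gave 0 to 4 members in transition, 0 to 3 in pooled marrow, 4 to 6 in early, 3 to 5 in progression, 4 to 5 in terminal and 4 to 7 in pooled spleen against wild type, 1 to 2 in terminal against progression, 1 to 3 in terminal against early, and 5 to 6 between tissues. Calls over all genes moved too, from 726 to 1911 in terminal against progression without progression spleen 3. In pooled marrow they went from 82 to 22 without wild-type marrow 3. The all-gene counts of the other left-out arrays are not given here. The causes were not tested.

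The replicate numbers were not taken as pairs. Correlations of same-numbered arrays ran from -0.43 to 0.55 in marrow (median 0.09) and from -0.32 to 0.23 in spleen (median 0.01). Arrays of different numbers had medians of -0.02 in marrow and -0.01 in spleen. With the replicate number as a block, 0 members passed in transition against wild-type marrow, 3 in early and 3 in progression against wild-type spleen. Over all genes, the block gave 825 calls in early, 1111 in progression and 2948 in terminal spleen, and 2276 in pooled spleen, the counts without it being 1971, 2386, 4270 and 4023. With array weights these were 5699, 3765, 5139 and 6354, and 1221, 1979 and 69 in the 3 marrow states, where 35, 52 and 6 were called without weights.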
